A study of Saccharomyces cerevisiae with 12 samples.

Results

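The response of wild type budding yeast to Congo Red was followed in 6 of the 12 arrays of the series, 3 from treated and 3 from untreated cultures, over all probe sets with a single gene symbol. Of 5449 such genes, 5345 were bright enough to be tested. Both groups were Saccharomyces cerevisiae of the BY4741 background labelled wild type, grown in YPD, a rich glucose medium. Each culture was diluted, grown on for a few hours and then split, and Congo Red was added to a single part of it, at 30 µg/ml and for 3 h, so that the part left alone served as its control. An array of each group with the same number was therefore taken as the same culture, and the cultures are called 1, 2 and 3. The other 6 arrays carried a gcn5 mutant of the same background under the same conditions, GCN5 being the gene of the histone acetyltransferase of the SAGA complex, and the labels do not describe its allele further. Levels are the deposited log2 values made with GCRMA, and a change is Congo Red minus untreated on that scale. The ± gives the standard error of a change in the limma fit, which estimated the spread from the cultures of both strains together. It is not the spread over the 3 wild type cultures alone. A gene was called where limma's adjusted p was under 0.05.

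The yeast cell wall is a layer of beta-glucan, chitin and mannoproteins that holds the cell against its own turgor. Congo Red binds chitin and glucan chains and disturbs their assembly. Sensors in the plasma membrane report wall damage to the GTPase Rho1, which activates protein kinase C and a MAP kinase cascade ending in Slt2, and Slt2 activates the transcription factor Rlm1. The pathway is known for raising genes of wall synthesis and remodelling. Because RNA came from whole cultures, fewer cells with a transcript and less of it per cell cannot be told apart.

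Marker genes were read as a check of the labels. GCN5 lay between 8.13 and 8.33 on the 6 wild type arrays and between 3.02 and 4.08 in the mutant. URA3 and MET17, which are deleted in this background, stayed under 4 on all wild type arrays, and LEU2, also deleted there, lay between 3.93 and 4.93. HIS3, deleted there only in part, lay between 9.62 and 10.08. The 7 a-specific markers were read on every array, with a summed level from 13.65 to 14.54 untreated and 13.48 to 14.53 in Congo Red. The alpha pheromone gene MF(ALPHA)1 stayed under 4, while SAG1, another alpha-specific gene, read 7.92 to 8.45 in every wild type sample. The summed level of 7 sporulation genes was 9.03 to 9.13 untreated and 9.16 to 9.57 in Congo Red.

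Culture 3 stood apart from the others in both its treated and its untreated part. In it 19 genes were lower and 7 higher, by at least 1 on the log2 scale on both arrays, than on any of the other 4 wild type arrays. For culture 1 the counts were 0 and 0, and for culture 2 they were 1 and 0. The low genes were led by mating genes: FIG1, a gene for pheromone-induced calcium uptake, read 8.25, 8.89 and 3.92 on the untreated arrays and 8.13, 8.46 and 3.8 in Congo Red, and AGA2, the binding subunit of a-agglutinin, read 11.42, 11.42 and 9.25 on the untreated arrays and 11.34, 11.25 and 9.01 in Congo Red. The high genes were led by iron uptake genes, among them the siderophore wall protein FIT1 with 8.92, 8.82 and 11.7 on the untreated arrays and 8.83, 8.58 and 10.95 in Congo Red. These genes were picked after their values were seen. Both parts of the culture shared the difference, and 3 of the 26 genes, YGR109W-A, GCV1 and TIS11, were called for Congo Red. Over all tested genes 23.8% were called.

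Congo Red changed the level of 1272 genes, 23.8% of those tested. Of these, 658 rose (12.3%) and 614 fell (11.5%). The rises were larger than the falls: 90 genes rose and 8 fell by at least 2-fold, together 1.83% of the genes, and 15 rose and 1 fell by at least 4-fold. Most calls were small, with 426 of the rises and 491 of the falls under 1.5-fold, and the median called change was 0.49 for rises and -0.43 for falls. The treated and untreated levels did not overlap for 1527 genes, 28.6% of those tested, and 1013 of these were called. The change had the same sign in all 3 cultures for 1271 of the 1272 called genes and for 3009 of all genes. The paired call itself favours a shared sign, so the count for called genes is not separate evidence. Without culture 1, 2 or 3 the count of calls was 891, 744 or 818, and 100, 103 or 84 genes were called at 2-fold or more. The rises without culture 3 numbered 502 and the falls 316. In a fit that ignored which arrays shared a culture, 494 genes were called, 285 higher and 209 lower, all of them among the 1272, and 91 were called at 2-fold or more. Genes given with a standard error below that were called only with the cultures paired were WSC4, RHO1, ROM1, SKN1, PLB2, SED1, GPD1, YET2, HPT1, ARO10, LEU9, GLC3, GSY2, TPS2, CYC7, NDE2, GPX2, MSN4, PRB1, PHM6 and SPL2, with adjusted p from 0.0584 (RHO1 and YET2) to 0.585 (CYC7) when unpaired. Among other genes named below, the same held for GLK1, YNL058C, URA8, KAR2, GAS3, FES1, BUD7, NQM1, PCL1, RPS27A, SEC24, ERG20, GAS5, ZEO1, KTR1, KRE9, YMR230W-A, ROM2, YVH1, GND2, PYK2, HSP82, OCH1, TMA10, GPI15, SAC7, SUR7, WSC2, CLN2, RPL22B, KRE5, SDP1, CLN3, EIS1, FRE1, KTR6, STE6, TIR1 and IZH4, with adjusted p from 0.0553 (GLK1) to 0.752 (IZH4).

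Rises of at least 2-fold were most frequent among genes that were dim when untreated. The genes were ranked by mean untreated level and divided into 5 equal groups. The counts of such rises were 35, 18, 22, 9 and 6 from the dimmest group to the brightest. The change subtracts the untreated level, so this ranking by itself favours rises at the dim end and falls at the bright end. Called falls were rarest at the dim end, with 62 in the dimmest group, 187 in the fourth and 140 in the brightest. In the plot of change against level the large rises spread over the whole range, while falls past 2-fold were few at any level.

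**Figure D1:**
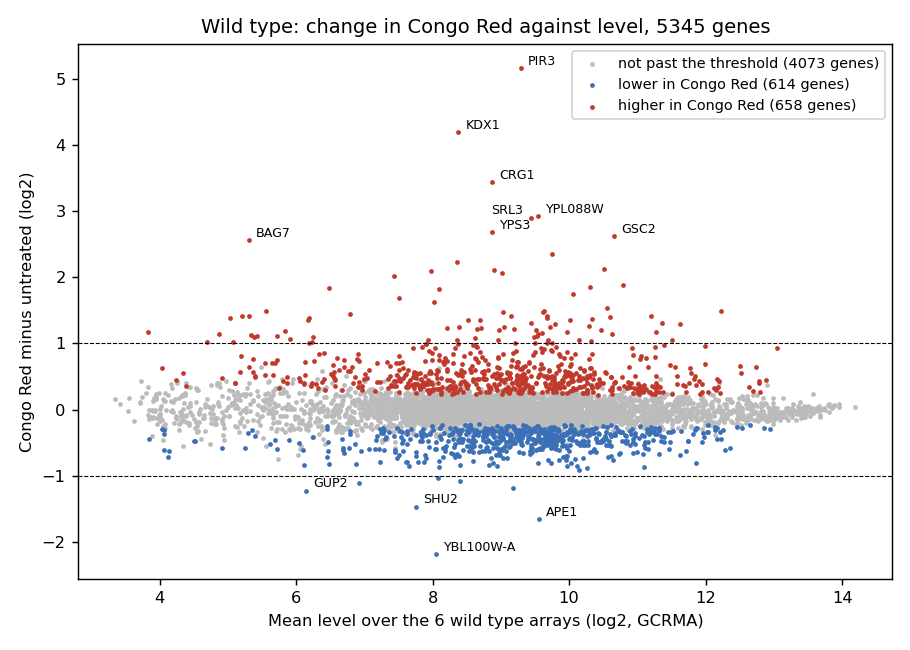
Change in Congo Red (log2, Congo Red minus untreated) against the mean level over the 6 wild type arrays (log2, GCRMA) for 5345 genes, with the 658 called rises in red, the 614 called falls in blue and dashed lines at 2-fold. The largest rises, PIR3 and KDX1, stand clear of all other genes, and only 8 called genes lie below the lower line.

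The largest rises were genes of wall proteins, wall enzymes and signalling. PIR3, a glucan-bound structural wall protein, read 6.51, 7.11 and 6.51 on the untreated arrays and 11.73, 11.88 and 12.02 in Congo Red, a rise of 5.16 ± 0.24 (adjusted p = 7.8e-06) or 35.8-fold. KDX1, a kinase-like protein related to Slt2 and itself a known Rlm1 target, read 6.16, 6.31 and 6.37 on the untreated arrays and 10.3, 10.1 and 11.02 in Congo Red and rose by 4.19 ± 0.19 (adjusted p = 7.8e-06). CRG1, a methyltransferase known for resistance to the drug cantharidin, read 7.09, 7.28 and 7.1 on the untreated arrays and 10.38, 10.61 and 10.8 in Congo Red and rose by 3.44 ± 0.13 (adjusted p = 3.2e-06). For each of these genes the lowest treated array was above the highest untreated array by more than the spread within either group. YPL088W, a putative aryl alcohol dehydrogenase, rose by 2.92 ± 0.09 and SRL3, a repressor of G1/S transcription, by 2.9 ± 0.15.

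The other genes among the 15 largest rises had changes between 2.01 and 2.68. YPS3, a wall aspartic protease, read 7.59, 7.38 and 7.62 on the untreated arrays and 10.25, 9.74 and 10.63 in Congo Red and rose by 2.68 ± 0.14 (adjusted p = 1.2e-05). GSC2, a catalytic subunit of glucan synthase, read 9.15, 9.51 and 9.36 on the untreated arrays and 11.77, 12.02 and 12.1 in Congo Red and rose by 2.62 ± 0.10 (adjusted p = 3.2e-06). BAG7, a GTPase-activating protein for Rho1, was near or under log2 4 when untreated, with 4.28, 3.94 and 3.86 on the untreated arrays and 6.49, 6.71 and 6.56 in Congo Red, so its rise was at least 5.62-fold with values under 4 set to 4. These 3 genes too had no overlap between treated and untreated arrays, which the choice of the 15 required. The rest were YNR065C, a sortilin homologue (2.36), the pheromone-regulated membrane protein genes PRM10 (2.24) and PRM5 (2.12), AFR1, a regulator of the alpha-factor receptor (2.11), the salt tolerance gene HAL1 (2.1), the mannosyltransferase gene KTR2 (2.06) and the protein kinase gene YPK2 (2.01). All 15 kept their call and direction when any one culture was left out.

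The falls were smaller, and those given here are the 15 largest among called genes whose groups did not overlap. The largest was YBL100W-A, a gene of the retrotransposon Ty, which read 9.12, 8.35 and 9.96 on the untreated arrays and 7.28, 6.36 and 7.21 in Congo Red and fell by 2.19 ± 0.18 (adjusted p = 0.00011); near-identical copies of Ty may share its signal. APE1, a vacuolar aminopeptidase delivered by the Cvt pathway, read 10.41, 10.62 and 10.15 on the untreated arrays and 8.69, 8.93 and 8.57 in Congo Red and fell by 1.66 ± 0.15 (adjusted p = 0.00016). SHU2, of the Shu complex in recombinational repair, read 8.64, 8.5 and 8.32 on the untreated arrays and 7.28, 7.12 and 6.65 in Congo Red and fell by 1.47 ± 0.16 (adjusted p = 0.0005). Treated and untreated arrays did not overlap for any of the 3, which the choice required. The next were GUP2 (-1.23), a homologue of a glycerol uptake factor, the oligopeptide transporter gene OPT1 (-1.18), the small subunit assembly gene FAF1 (-1.04), the malic enzyme gene MAE1 (-0.92) and the large subunit assembly gene SDA1 (-0.89). GFD2, LYS20, AAH1, PLB2, HO, DHR2 and SYO1 closed the 15, with changes from -0.87 to -0.84. YMR230W-A (-1.12) and PHM6 (-1.08) also fell by at least 2-fold, with groups that overlapped.

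**Figure D2:**
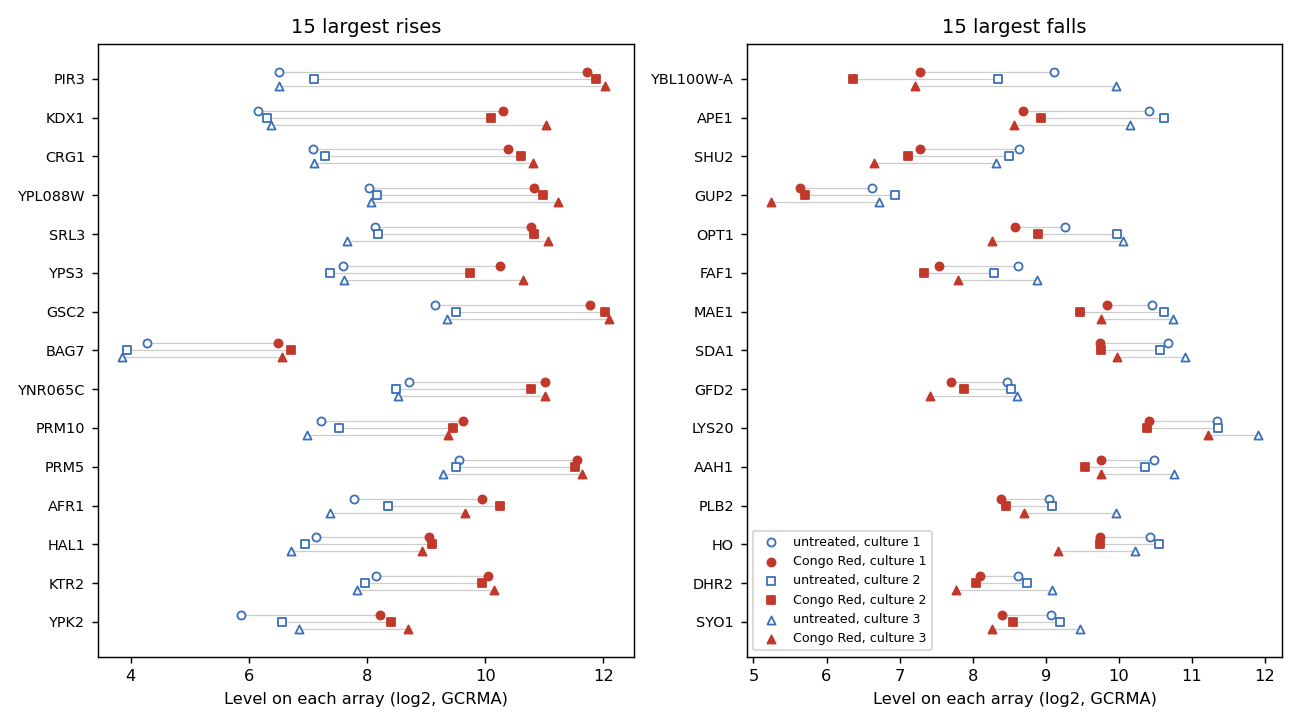
Level on each array (log2, GCRMA) for the 15 largest rises (left) and falls (right) among called genes whose groups do not overlap, with open blue symbols untreated, filled red symbols in Congo Red, the symbol shape giving the culture and a grey line joining the parts of a culture. By this choice every treated array of a gene lies on the same side of its untreated arrays, and the lines for PIR3 and KDX1 are the longest.

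At the top of the integrity pathway, 3 of 7 sensor genes rose and 2 fell, 71.4% against 23.8% of all tested genes. Unpaired, 2 were called higher and 0 lower. MID2, a mannosylated membrane sensor, read 9.56, 9.32 and 9.42 on the untreated arrays and 10.24, 10.16 and 10.41 in Congo Red and rose by 0.84 ± 0.08 (adjusted p = 0.00021). Its close homologue MTL1 read 5.42, 6.12 and 6.21 on the untreated arrays and 6.38, 6.98 and 6.91 in Congo Red and rose by 0.84 ± 0.09 (adjusted p = 0.00032). The groups of both genes were separate. WSC4, of the other sensor family, read 8.01, 8.34 and 7.18 on the untreated arrays and 7.36, 7.47 and 6.51 in Congo Red and fell by 0.73 ± 0.14 (adjusted p = 0.00542), with cultures 1 and 2 in Congo Red inside the untreated range, which culture 3 widened at its low end. WSC2 (0.25) and ZEO1 (-0.29), a regulator of MID2, were called with all cultures, but the adjusted p reached 0.191 for WSC2 without culture 1 and 0.16 for ZEO1 without culture 2. SLG1, also named WSC1, and WSC3 were not called, with changes of 0.01 (adjusted p = 0.963) and 0.20 (adjusted p = 0.132).

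Of 9 genes of Rho1 and its regulators, 5 rose and none fell, 55.6% against 12.3% of all tested genes called higher. Besides BAG7, RHO1 itself rose by 0.46 ± 0.07 (adjusted p = 0.00188), and ROM1, an exchange factor for Rho1, rose by 0.43 ± 0.09 (adjusted p = 0.00729). The GTPase-activating gene SAC7 (0.35) and the exchange factor gene ROM2 (0.28) were called too, with adjusted p up to 0.185 without culture 1 for SAC7 and 0.193 without culture 2 for ROM2. The rises of the list numbered 3, 3 and 4 without cultures 1, 2 and 3, and 1 unpaired.

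The kinases between Rho1 and Slt2 were not among the called genes, while the genes at the end of the cascade were. SLT2, the MAP kinase, read 9.8, 9.87 and 9.88 on the untreated arrays and 11.74, 11.63 and 11.85 in Congo Red and rose by 1.89 ± 0.12 (adjusted p = 3.1e-05). RLM1, the transcription factor, read 7.94, 8.0 and 8.21 on the untreated arrays and 9.08, 9.24 and 9.47 in Congo Red and rose by 1.22 ± 0.08 (adjusted p = 4.4e-05). Both had separate groups, and with KDX1 they made up the 3 rises among 10 kinases and factors. That was 30%, against 12.3% of all tested genes called higher. PKC1 changed by -0.06 (adjusted p = 0.693), BCK1 by -0.07 (adjusted p = 0.617), MKK1 by -0.05 (adjusted p = 0.707) and MKK2 by 0.00 (adjusted p = 0.987), all within the spread between cultures. Of 9 phosphatase genes listed with the MAP kinase pathways, PTP2 rose by 1.41 ± 0.08 (adjusted p = 1.5e-05) and MSG5 by 1.16 ± 0.11 (adjusted p = 0.0002). PTP2 was among the most even of the large rises, with 1.45, 1.36 and 1.43 in the 3 cultures. SDP1 (-0.27) and YVH1 (-0.43) fell, with adjusted p up to 0.159 without culture 2 and 0.0615 without culture 3, and 5 phosphatase genes were not called. The calls made 44.4% of the phosphatase list, against 23.8% of all tested genes. A link of YVH1 to MAP kinases was not tested.

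Among 23 tested genes known as targets of Slt2 and Rlm1, 21 rose and none fell, with a median change of 1.41 against -0.02 over all tested genes. The list names genes known from work on wall stress and was drawn up with results of these arrays known, so its direction is a description. It overlaps the largest rises above, with PIR3, KDX1, SRL3, YPS3, GSC2 and PRM5. Its smaller rises included the secreted wall protein gene HSP150 (0.64), BGL2 (0.45), CIS3 (0.43) and FKS1 (0.41). The rises made 91.3% of the list, against 12.3% of all tested genes. The count was 21, 21 and 20 without cultures 1, 2 and 3.

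**Figure D3:**
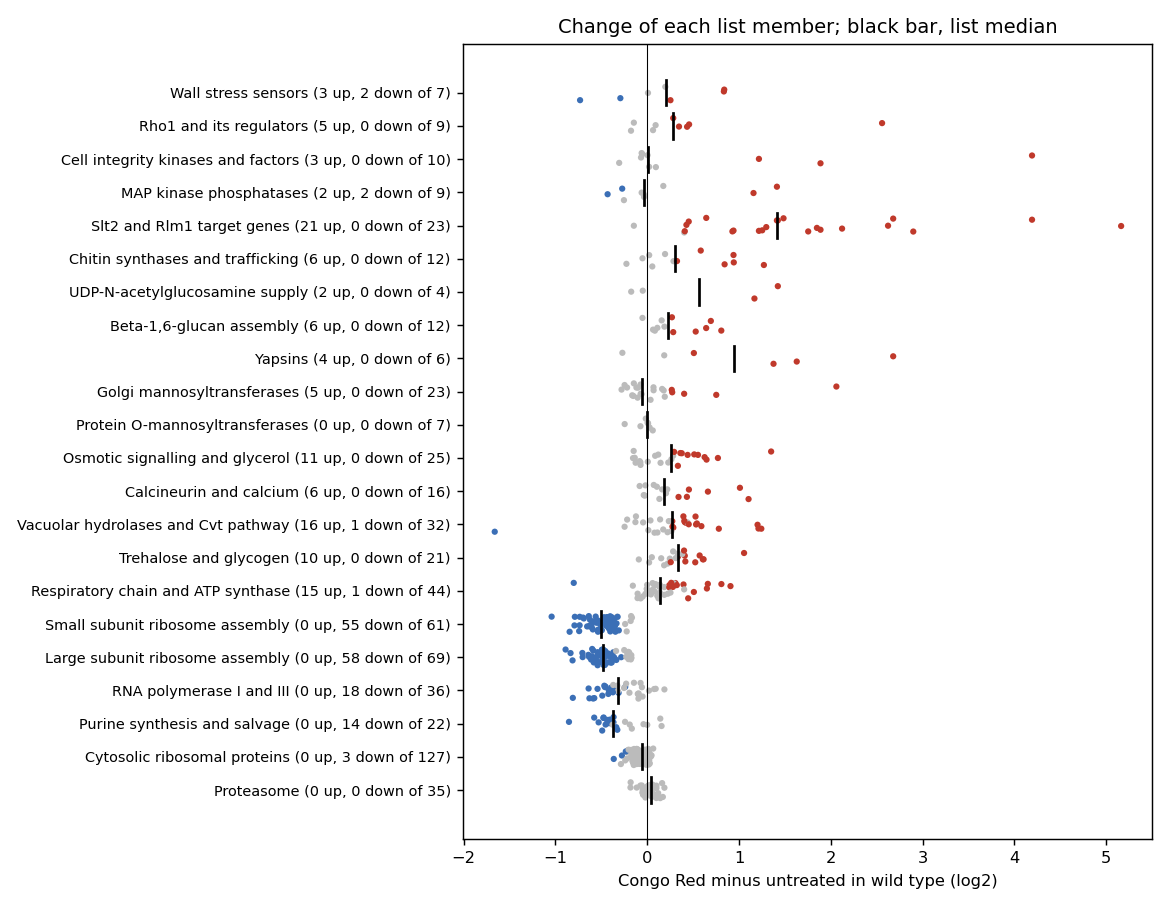
Change in Congo Red (log2) of every tested member of 22 of the 73 lists, one point per gene, red for called rises, blue for called falls and grey for genes not called, with a black bar at the list median. Members of the Slt2 and Rlm1 list spread up to 5.16, those of both ribosome assembly lists lie below 0 throughout, and the ribosomal protein and proteasome lists sit close to 0.

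Of 12 genes of chitin synthases and their trafficking, 6 rose and none fell, 50% against 12.3% of all tested genes called higher. Unpaired, 5 of them were called. CHS1, the synthase known for repair at cell separation, read 9.61, 9.77 and 9.58 on the untreated arrays and 10.74, 11.2 and 10.83 in Congo Red and rose by 1.27 ± 0.10 (adjusted p = 6.9e-05). CHS3, the synthase of most wall chitin, read 10.69, 10.95 and 10.73 on the untreated arrays and 11.66, 12.08 and 11.45 in Congo Red and rose by 0.94 ± 0.09 (adjusted p = 0.00021). Groups were separate for both. CHS7, needed for CHS3 to leave the ER, rose by 0.84 ± 0.08, CHS6, needed for its delivery to the surface, by 0.94 ± 0.10, and its activator SKT5 by 0.58 ± 0.08. BUD7 (0.32), of the same trafficking complex as CHS6, was called too, but not without culture 1 (adjusted p = 0.094) or culture 2 (0.0906). CHS2, which makes the primary septum, changed by -0.05 (adjusted p = 0.697).

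Of 4 genes that supply the chitin precursor UDP-N-acetylglucosamine, 2 rose and none fell, 50% against 12.3% of all tested genes called higher. GFA1, the glutamine-fructose-6-phosphate amidotransferase that commits sugar to this route, read 10.3, 10.76 and 10.42 on the untreated arrays and 11.84, 11.89 and 12.02 in Congo Red and rose by 1.42 ± 0.11 (adjusted p = 8.3e-05). PCM1, the phosphoacetylglucosamine mutase, read 10.53, 10.71 and 10.81 on the untreated arrays and 11.81, 11.94 and 11.81 in Congo Red and rose by 1.17 ± 0.09 (adjusted p = 9e-05). Treated arrays of both were above all untreated ones. The other 2 enzymes, GNA1 and QRI1, were not called, with changes of -0.18 (adjusted p = 0.114) and -0.05 (adjusted p = 0.663). None of the 4 genes of chitinases and chitin deacetylases was called by limma (1 had an unadjusted p under 0.05, and 1 was called with a trended, robust prior), among them the chitinase gene CTS1 with 0.21 (adjusted p = 0.077).

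Glucan genes rose mainly through one synthase and a few remodelling enzymes. Beside GSC2, its sister subunit FKS1 read 12.43, 12.59 and 12.72 on the untreated arrays and 12.92, 12.99 and 13.05 in Congo Red and rose by 0.41 ± 0.07 (adjusted p = 0.00393), a small change with separate groups. CRH1, a transglycosylase linking chitin to glucan, rose by 1.3 ± 0.14 (adjusted p = 0.00043). GAS5, a glucanosyltransferase, was called higher (0.33, adjusted p up to 0.0598 without culture 2) and GAS3 lower (-0.39, adjusted p = 0.0609 without culture 2), while GAS1 changed by 0.10 (adjusted p = 0.383). Of 14 glucanases and SUN proteins 6 rose and 2 fell, led by the exoglucanase gene EXG2 (1.15 ± 0.10, adjusted p = 0.00016). The calls made 57.1% of that list, against 23.8% of all tested genes. Unpaired, 5 were called higher and 0 lower.

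In the assembly of beta-1,6-glucan, 6 of 12 genes rose and none fell, 50% against 12.3% of all tested genes called higher. Unpaired, 3 of them were called. KNH1, a homologue of KRE9, rose by 0.81 ± 0.10 (adjusted p = 0.00072) and KRE6, a glucan synthesis protein of the secretory route, by 0.64 ± 0.07 (adjusted p = 0.00045). SKN1, the homologue of KRE6, rose by 0.53 ± 0.08. ROT1 (0.69) was called with all cultures, with adjusted p up to 0.0721 without culture 3. The rises numbered 3, 4 and 4 without cultures 1, 2 and 3, and KRE9 (0.28) and KRE5 (0.27) were among the calls lost, with adjusted p up to 0.148 and 0.205 without culture 1.

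Wall proteins differed by family. Of 5 PIR proteins, which are bound to glucan through their repeats, 4 rose: PIR3, PIR5 (1.09 ± 0.15), HSP150 (0.64 ± 0.08) and CIS3 (0.43 ± 0.07). PIR1 changed by 0.40 (adjusted p = 0.0675). The rises made 80% of the PIR list, against 12.3% of all tested genes. Of 33 wall proteins with a GPI anchor, 9 rose and 3 fell, 36.4% against 23.8% of all tested genes. Unpaired, 5 were called higher and 1 lower. PST1 read 9.29, 9.45 and 9.41 on the untreated arrays and 11.03, 11.25 and 11.43 in Congo Red and rose by 1.85 ± 0.11 (adjusted p = 1.9e-05), and CWP1 rose by 1.49 ± 0.23 (adjusted p = 0.00251). SED1, an abundant wall protein, rose by 0.93 ± 0.18 (adjusted p = 0.0534 without culture 3), and PLB2, a phospholipase B, fell by 0.85 ± 0.12 (adjusted p = 0.00179). The level of PLB2 was 9.05, 9.08 and 9.96 on the untreated arrays and 8.39, 8.46 and 8.7 in Congo Red, highest in untreated culture 3. The other falls were TIR3 (-0.62) and TIR1 (-0.38), genes of cold and anaerobic wall proteins, and the call of TIR1 was lost when any one culture was left out (adjusted p up to 0.155).

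Of 6 yapsins, aspartic proteases that act on wall proteins, 4 rose and none fell, 66.7% against 12.3% of all tested genes called higher. YPS6 read 7.0, 7.51 and 7.11 on the untreated arrays and 8.72, 8.98 and 8.81 in Congo Red and rose by 1.63 ± 0.08 (adjusted p = 9.9e-06), and YPS1 read 9.5, 9.65 and 9.78 on the untreated arrays and 10.97, 10.91 and 11.17 in Congo Red and rose by 1.38 ± 0.09 (adjusted p = 3.6e-05). Together with YPS3 they had no overlap between groups. YPS7 rose by 0.51 ± 0.08, and MKC7 and YPS5 were not called, with -0.27 (adjusted p = 0.141) and 0.19 (adjusted p = 0.192).

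KTR2, a Golgi mannosyltransferase, read 8.15, 7.97 and 7.82 on the untreated arrays and 10.04, 9.94 and 10.15 in Congo Red and rose by 2.06 ± 0.10 (adjusted p = 7.8e-06), with every treated array above the untreated ones. MNT4 rose by 0.75 ± 0.11. In all, 5 of 23 Golgi mannosyltransferase genes rose and none fell, and the calls of KTR6, KTR1 and OCH1 were lost without culture 2 for KTR6 (adjusted p = 0.0811) and without more than 1 culture for KTR1 (up to 0.146) and OCH1 (up to 0.151). The list had 21.7% of its genes called, against 12.3% of all tested genes called higher and 23.8% called either way. None of the 7 genes of protein O-mannosyltransferases was called by limma, and none had an unadjusted p under 0.05, with changes from -0.25 to 0.06. Of 26 genes of GPI anchor synthesis 3 rose and 1 fell, 15.4% of the list against 23.8% of all tested genes. SPT14, which starts the anchor, rose by 0.70 ± 0.08 (adjusted p = 0.00059). The rises numbered 1, 1 and 3 without cultures 1, 2 and 3, and the fall, of GPI15, was lost whichever culture was left out.

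Of 11 plasma membrane genes of the Flc family and the eisosome domains, 3 rose and 3 fell, 54.5% against 23.8% of all tested genes. FLC2, a putative calcium channel also needed for FAD transport, read 9.67, 9.78 and 9.91 on the untreated arrays and 11.24, 11.22 and 11.51 in Congo Red and rose by 1.54 ± 0.10 (adjusted p = 3.3e-05). FLC1 rose by 1.4 ± 0.15 (adjusted p = 0.00042), and PUN1, a membrane protein of the same domains as SUR7, by 1.75 ± 0.12 (adjusted p = 3.6e-05). NCE102, an eisosome sensor of sphingolipids, read 12.57, 12.77 and 12.45 on the untreated arrays and 11.86, 12.35 and 11.75 in Congo Red and fell by 0.61 ± 0.10 (adjusted p = 0.00253). SUR7 (-0.37; adjusted p = 0.0684 without culture 3) and EIS1 (-0.32; up to 0.119 without culture 2) were called lower, and the falls of the list numbered 3, 2 and 1 without cultures 1, 2 and 3. Of 30 polarity, septin and actin genes 5 rose, led by the kinase gene SKM1 (0.73) and the bud site gene AXL2 (0.55), and none fell. The 16.7% called lay under the 23.8% of all tested genes, and the rises numbered 4, 3 and 6 without cultures 1, 2 and 3.

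In the osmotic pathway, where Hog1 is the MAP kinase, 11 of 25 genes rose and none fell. SSK22, a MAP kinase kinase kinase of its Sln1 branch, read 7.66, 7.67 and 8.21 on the untreated arrays and 9.17, 9.12 and 9.3 in Congo Red and rose by 1.35 ± 0.09 (adjusted p = 3.6e-05). The glycerol-making genes GPP2 and GPD1 rose by 0.77 ± 0.10 and 0.65 ± 0.11, the response regulator gene SSK1 by 0.63 ± 0.07 and the membrane sensor gene MSB2 by 0.51 ± 0.08. In the calcium pathway 6 of 16 genes rose and none fell: CMK2, a calmodulin-dependent kinase, rose by 1.1 ± 0.08 (adjusted p = 7.7e-05), RCN2, a calcineurin regulator, by 1.01 ± 0.13 (adjusted p = 0.00087), and CMP2, a catalytic subunit of calcineurin, by 0.66 ± 0.09. The rises made 44% of the osmotic and 37.5% of the calcium list, against 12.3% of all tested genes. Without cultures 1, 2 and 3 the counts were 8, 8 and 10 for the osmotic list and 4, 5 and 4 for the calcium list. Unpaired they were 7 and 5.

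Along the secretory pathway the changes were small. Of 17 ER chaperone and oxidation genes 6 rose and none fell, led by the nucleotide exchange factor SIL1 (0.61 ± 0.09, adjusted p = 0.00181). The rises made 35.3% of the list, against 12.3% of all tested genes. KAR2, the main ER Hsp70, changed by 0.27, and PDI1, the disulfide isomerase, by 0.34. These calls did not all survive the loss of a culture: 1, 1 and 3 genes of the list were called without cultures 1, 2 and 3, and KAR2 had adjusted p up to 0.156 without culture 1 and PDI1 up to 0.0775 without culture 2. The YET genes, which encode related ER membrane proteins, all rose, YET1 by 0.79 ± 0.10, YET3 by 0.78 ± 0.09 and YET2 by 0.73 ± 0.11. Among 9 genes of the oligosaccharyl transferase limma called none, and 0 had an unadjusted p under 0.05. Of 12 COPII coat genes 1, SEC24 (0.29), was called, and this call was lost whichever culture was left out (adjusted p up to 0.246). Of 14 genes of ER-associated degradation 3 rose, 21.4% against 23.8% of all tested genes. These rises numbered 0, 1 and 1 without cultures 1, 2 and 3.

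The falls gathered in ribosome assembly. Of 61 tested genes of small subunit assembly 55 fell and none rose, with a median change of -0.50. Of 69 genes of large subunit assembly 58 fell and none rose, with a median of -0.48. Over all tested genes 11.5% were called lower. Every member of both lists had a negative change, as had 2871 of all 5345 tested genes. FAF1, a pre-rRNA processing factor, read 8.62, 8.29 and 8.88 on the untreated arrays and 7.54, 7.33 and 7.79 in Congo Red and fell by 1.04 ± 0.10 (adjusted p = 0.00017). SDA1, needed for export of the large subunit, read 10.67, 10.56 and 10.91 on the untreated arrays and 9.74, 9.76 and 9.97 in Congo Red and fell by 0.89 ± 0.07 (adjusted p = 0.0001). Neither gene had a treated array as high as an untreated one. The RNA helicase gene DHR2 fell by 0.85 ± 0.14 and SYO1, a chaperone for import of ribosomal proteins, by 0.84 ± 0.14. Without culture 1, 2 or 3 the falls numbered 50, 39 and 40 of 61 and 54, 47 and 42 of 69.

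Ribosomal protein genes did not move in the same way. Of 127 cytosolic ribosomal protein genes 3 fell and none rose, with a median change of -0.06. The 3 were RPL22B (-0.37), RPL27B (-0.28) and RPS27A (-0.23), which made 2.36% of the list against 11.5% of all genes. Without cultures 1, 2 and 3 the falls numbered 0, 0 and 2. Many of these genes are pairs of near-identical copies whose probe sets may share signal. Of 36 genes of RNA polymerases I and III and their factors, 18 fell and none rose, among them RPC25 (-0.81), RPA34 (-0.64) and RPA43 (-0.59). The falls made 50% of that list, against 11.5% of all tested genes, and were 15, 12 and 11 without cultures 1, 2 and 3. Translation factors (3 of 32 lower), tRNA synthetases (2 of 20 lower) and mitochondrial ribosomal proteins (2 higher and 4 lower of 72) had 9.38%, 10% and 8.33% of their genes called, against 23.8% of all tested genes, and without culture 2 these counts were 1, 0, 0 and 0.

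Of 22 genes of purine synthesis and salvage 14 fell and none rose, with a median of -0.37. The falls made 63.6% of the list, against 11.5% of all tested genes. AAH1, the adenine deaminase, read 10.48, 10.36 and 10.76 on the untreated arrays and 9.76, 9.54 and 9.75 in Congo Red and fell by 0.85 ± 0.09 (adjusted p = 0.00036). HPT1, which salvages hypoxanthine and guanine, fell by 0.58 ± 0.10. For AAH1 the groups were separate. The count of falls was 9, 5 and 6 without cultures 1, 2 and 3. In pyrimidine metabolism URA7, a CTP synthase, fell by 0.48 ± 0.08 and the uridine kinase gene URK1 by 0.57 ± 0.08, while the URA8 call (0.28) was lost whichever culture was left out (adjusted p up to 0.0984).

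Of 19 lysine and branched-chain genes 7 fell and none rose, 36.8% against 11.5% of all tested genes called lower. LYS20, the homocitrate synthase, read 11.35, 11.35 and 11.91 on the untreated arrays and 10.41, 10.39 and 11.22 in Congo Red and fell by 0.86 ± 0.09 (adjusted p = 0.00031), and LEU9, an isopropylmalate synthase, fell by 0.71 ± 0.10. Culture 3 had the highest level of LYS20 in both its parts, and the falls of the list numbered 5, 2 and 2 without cultures 1, 2 and 3. Of 39 histidine, aromatic, serine and related genes 2 rose and 8 fell, 25.6% against 23.8% of all tested genes. The falls numbered 3, 2 and 0 without cultures 1, 2 and 3. ARO10, a decarboxylase of aromatic amino acid breakdown, rose by 0.96 ± 0.18. Of 30 sulfate and methionine genes 6 rose and 4 fell, among them the sulfurylase gene MET3 (0.60) upward and the methylmethionine permease gene MMP1 (-0.79) downward. The calls made 33.3% of this list, against 23.8% of all tested genes. Without cultures 1, 2 and 3 its rises numbered 4, 7 and 8 and its falls 5, 1 and 1. Of 15 arginine genes 3 rose and 1 fell, 26.7% against 23.8% of all tested genes. Without cultures 1, 2 and 3 the rises numbered 1, 2 and 2 and the falls 1, 0 and 0.

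Amino acid and peptide permease genes changed in both directions. OPT1, a transporter of glutathione and oligopeptides, read 9.26, 9.98 and 10.05 on the untreated arrays and 8.58, 8.9 and 8.27 in Congo Red and fell by 1.18 ± 0.18 (adjusted p = 0.00214), with the deepest fall in culture 3. Its relative OPT2 read 4.95, 5.68 and 5.1 on the untreated arrays and 6.51, 7.02 and 5.78 in Congo Red and rose by 1.19 ± 0.15 (adjusted p = 0.0009). In both the treated and untreated arrays were apart. STP2, a factor that raises permease genes, rose by 0.94 ± 0.08. In all, 4 of 27 permease genes rose and 3 fell, 25.9% against 23.8% of all tested genes, with 2, 1 and 1 falls without cultures 1, 2 and 3.

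Of 21 genes of trehalose and glycogen 10 rose and none fell, with a median of 0.33. The rises made 47.6% of the list, against 12.3% of all tested genes. NTH1, the neutral trehalase, read 9.55, 10.01 and 9.3 on the untreated arrays and 10.56, 10.9 and 10.58 in Congo Red and rose by 1.06 ± 0.10 (adjusted p = 0.0002). TPS2, which makes trehalose, rose by 0.57 ± 0.10, the glycogen synthase gene GSY2 by 0.61 ± 0.09 and the branching enzyme gene GLC3 by 0.61 ± 0.12. Genes for making and for breaking down the sugars were among the rises. The count was 5, 6 and 6 without cultures 1, 2 and 3.

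Genes of respiration and of the tricarboxylic acid cycle gave small rises. Of 44 respiratory chain and ATP synthase genes 15 rose and 1 fell, and of 24 cycle genes 8 rose and none fell. The calls made 36.4% and 33.3% of the lists, against 23.8% of all tested genes. CIT1, the mitochondrial citrate synthase, read 10.76, 11.24 and 10.68 on the untreated arrays and 11.68, 12.09 and 11.86 in Congo Red and rose by 0.98 ± 0.08 (adjusted p = 0.00014). STF1, an inhibitor of the ATP synthase, rose by 0.91 ± 0.13 and the external NADH dehydrogenase gene NDE2 by 0.81 ± 0.12. CYC7, the cytochrome c isoform of low oxygen, fell by 0.80 ± 0.19 (adjusted p = 0.0155; up to 0.0887 without culture 2). The respiratory rises numbered 7, 5 and 7 and those of the cycle 6, 5 and 7 without cultures 1, 2 and 3. ADR1 (0.94 ± 0.12) and CAT8 (0.71 ± 0.10), activators of growth on ethanol and other non-fermentable carbon, were among 6 rises in 28 glyoxylate, gluconeogenesis and acetate genes. That list had 21.4% of its genes called, against 23.8% of all tested genes. Of 22 glycolysis genes 1 rose, PYK2 (0.26; adjusted p up to 0.23 without culture 1), and of 20 hexose transport and phosphorylation genes 1 rose, GLK1 (0.55). In the pentose phosphate list NQM1 (0.94) and GND2 (0.61, adjusted p = 0.0773 without culture 3) rose and RKI1 (-0.76) fell. Its share of calls was 27.3%, against 23.8% of all tested genes.

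HSP12, a membrane-binding stress protein, read 11.1, 11.28 and 9.73 on the untreated arrays and 12.03, 12.34 and 11.67 in Congo Red and rose by 1.31 ± 0.19 (adjusted p = 0.00168), with 0.93, 1.06 and 1.94 in cultures 1, 2 and 3. Of 29 heat shock and chaperone genes 3 rose and 2 fell, 17.2% against 23.8% of all tested genes. The chaperone gene HSP82 (-0.26) and the exchange factor gene FES1 (-0.34) were called lower. The call of HSP82 was lost whichever culture was left out (adjusted p up to 0.148), and that of FES1 without culture 2 or 3 (0.111 and 0.182). Of 32 antioxidant genes 9 rose and 2 fell, 34.4% against 23.8% of all tested genes, and 5, 4 and 3 rose without cultures 1, 2 and 3. GPX2, a phospholipid hydroperoxide peroxidase, fell by 0.68 ± 0.09 (adjusted p = 0.0009). Among drug transport and membrane genes RTA1, a lipid-translocating exporter family gene for resistance to aminocholesterol, read 5.53, 5.42 and 5.75 on the untreated arrays and 7.19, 7.18 and 7.85 in Congo Red and rose by 1.84 ± 0.10 (adjusted p = 1.5e-05), and 4 of 25 genes rose and 5 fell. In that list 36% of the genes were called, against 23.8% of all tested genes. Its falls numbered 3, 2 and 2 without cultures 1, 2 and 3, and no fall was called unpaired. Of 24 stress transcription factors 5 rose and 1 fell, with COM2 at 0.87 ± 0.08, the general stress factor MSN4 at 0.67 ± 0.15 (adjusted p = 0.0513 without culture 3) and CIN5 falling by 0.62 ± 0.10. The list had 25% of its genes called, near the 23.8% of all tested genes. Its rises numbered 4, 2 and 5 without cultures 1, 2 and 3.

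Of 32 genes of vacuolar enzymes and of the Cvt pathway, which carries enzymes to the vacuole, 16 rose and 1, a cargo gene, fell. The calls made 53.1% of the list, against 23.8% of all tested genes. ATG8, the lipid-linked protein that builds autophagosomes, read 8.82, 8.65 and 8.27 on the untreated arrays and 9.76, 9.69 and 9.93 in Congo Red and rose by 1.21 ± 0.15 (adjusted p = 0.00087). PRB1, vacuolar protease B, read 9.69, 10.21 and 9.71 on the untreated arrays and 10.72, 11.1 and 11.41 in Congo Red and rose by 1.2 ± 0.14 (adjusted p = 0.00057). AMS1, the vacuolar mannosidase, read 7.72, 8.03 and 7.53 on the untreated arrays and 8.97, 9.14 and 8.91 in Congo Red and rose by 1.24 ± 0.09 (adjusted p = 5.4e-05). Groups were separate for ATG8, PRB1 and AMS1. AMS1 and APE1 are both carried to the vacuole by the receptor of the Cvt pathway encoded by ATG19. ATG19 rose by 0.59 and AMS1 rose, while APE1 fell on every treated array. The rises numbered 10, 10 and 11 without cultures 1, 2 and 3. None of 35 proteasome genes was called by limma (2 had an unadjusted p under 0.05), with changes from -0.18 to 0.19.

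Of 25 phosphate genes 3 rose and 5 fell: GDE1, a glycerophosphocholine phosphodiesterase, read 8.08, 8.45 and 8.75 on the untreated arrays and 9.5, 9.69 and 9.85 in Congo Red and rose by 1.25 ± 0.09 (adjusted p = 5e-05), and PHM6, a phosphate-regulated gene of unknown function, read 8.29, 8.68 and 9.83 on the untreated arrays and 7.35, 7.78 and 8.45 in Congo Red and fell by 1.08 ± 0.16 (adjusted p = 0.00222). For GDE1 the groups were apart, and for PHM6 they overlapped. SPL2, a regulator of phosphate uptake, fell by 0.76 ± 0.10. In the phosphate list 32% of the genes were called, against 23.8% of all tested genes. The phosphate rises numbered 3, 1 and 2 without cultures 1, 2 and 3. Of 33 iron and copper genes 4 rose and 6 fell, 30.3% against 23.8% of all tested genes. Among the falls was FRE1, a ferric reductase (-0.62). Without cultures 1, 2 and 3 the rises were 1, 1 and 3 and the falls 4, 2 and 4. Of 12 zinc genes 4 fell and none rose, 33.3% against 11.5% of all tested genes called lower. IZH4 (-0.73) led them, with 2, 4 and 2 falls without cultures 1, 2 and 3 and 1 unpaired. In thiamine and vitamin B6 metabolism 1 of 21 genes rose and 3 fell, 19% against 23.8% of all tested genes. Without cultures 1, 2 and 3 the rises numbered 2, 2 and 1 and the falls 2, 2 and 2.

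Of 32 ergosterol genes 1 was called, ERG20 (0.25), and it was not called when any one culture was left out (adjusted p up to 0.149). Of 25 phospholipid genes 1 rose, the methyltransferase gene OPI3 (0.54 ± 0.07, adjusted p = 0.00105). Of 33 fatty acid and sphingolipid genes 5 rose and 6 fell, among them SUR1 (0.89 ± 0.08) and IPT1 (0.63 ± 0.11), which mannosylate and extend complex sphingolipids. The calls made 33.3% of these genes, against 3.12% for ergosterol, 4% for phospholipid and 23.8% for all tested genes. The falls of that list numbered 5, 0 and 1 without cultures 1, 2 and 3.

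Of 29 G1/S genes 7 rose and 2 fell, 31.0% against 23.8% of all tested genes. SRL3 read 8.13, 8.18 and 7.66 on the untreated arrays and 10.78, 10.82 and 11.07 in Congo Red, and HO, a gene transcribed at the start of the cycle, fell by 0.85 ± 0.09 (adjusted p = 0.00039). The cyclin genes PCL1, CLN3 and CLN2 had changes of 0.49, 0.48 and 0.40, and their calls were each lost without 2 or more of the cultures taken in turn (adjusted p up to 0.255, 0.227 and 0.155). The rises of the list numbered 3, 5 and 3 and the falls 2, 1 and 2 without cultures 1, 2 and 3. Of 40 replication and repair genes 1 rose and 2 fell, 7.5% against 23.8% of all tested genes. Of the 3, SHU2 was the one that kept its call whichever culture was left out. None of 10 histone genes was called by limma, though 3 had an unadjusted p under 0.05 and 4 were called with a trended, robust prior, with changes from -0.25 to -0.09. Of 20 G2/M genes 2 rose and 2 fell, and of 16 daughter separation genes 2 rose and 1 fell. These made 20% and 18.8% of the lists, against 23.8% of all tested genes. Without cultures 1, 2 and 3 the G2/M rises numbered 1, 1 and 1 and the falls 1, 0 and 0. The separation rises numbered 1, 0 and 2 and the falls 0, 1 and 0. None of 23 SAGA subunit genes was called by limma, with an unadjusted p under 0.05 for 2 and a call for 1 with a trended, robust prior. Of 44 chromatin remodellers and modifiers 2 rose and 5 fell, 15.9% against 23.8% of all tested genes. Without cultures 1, 2 and 3 the rises numbered 1, 1 and 1 and the falls 3, 1 and 1.

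Mating and sporulation genes include those by which culture 3 differed. Of 35 pheromone genes 6 rose and 1 fell, 20% against 23.8% of all tested genes, and without cultures 1, 2 and 3 the rises numbered 4, 5 and 7 and the falls 0, 1 and 0. The rises were led by PRM10 and AFR1. PRM10 read 7.22, 7.52 and 6.99 on the untreated arrays and 9.62, 9.46 and 9.38 in Congo Red, and AFR1 read 7.78, 8.36 and 7.37 on the untreated arrays and 9.94, 10.24 and 9.66 in Congo Red. Both had separate groups, and culture 3 was the lowest in each part for both genes. The low mating genes of culture 3 are given above, and their part in these changes was not tested. Of the 7 a-specific genes STE6, the a-factor exporter, was called lower (-0.30), with adjusted p up to 0.0703 without culture 3, and limma called none of 3 tested alpha-specific genes (1 had an unadjusted p under 0.05). Of 29 meiosis genes 6 rose and none fell, 20.7% of the list. Over all tested genes 12.3% were called higher and 23.8% either way. SPO11, the nuclease that starts meiotic recombination, read 4.57, 4.68 and 4.24 on the untreated arrays and 6.53, 6.47 and 4.73 in Congo Red, with changes of 1.96, 1.79 and 0.49. Its rise of 1.42 ± 0.24 (adjusted p = 0.00347) was larger in cultures 1 and 2, and the rises of the list numbered 2, 3 and 5 without cultures 1, 2 and 3. The summed level of the sporulation markers, which include SPO11, was higher in Congo Red, as given above, and its part in the list was not tested. Of 12 seripauperin genes, which are near-identical copies, 5 rose and none fell, 41.7% against 12.3% of all tested genes called higher. Their rises numbered 1, 2 and 1 without cultures 1, 2 and 3.

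The size of the large rises was close in the 3 cultures, with exceptions, and 2-fold falls were most numerous in culture 3. The numbers of genes at least 2-fold higher were 89, 78 and 113 in cultures 1, 2 and 3, and at least 2-fold lower 8, 8 and 42. The median change of the 90 genes that rose at least 2-fold was 1.34, 1.23 and 1.38. Of the 90, 56 were at least 2-fold higher in every culture, and of the 8 falls 3 were 2-fold lower in every culture. Across genes, which are not independent replicates, the changes correlated at 0.81 between cultures 1 and 2, 0.71 between 1 and 3 and 0.79 between 2 and 3. The SD of the change over cultures had a median of 0.22 among the 98 genes and ranged from 0.04 for YKE4, an ER zinc transporter, to 0.89 for RTC3. RTC3 changed by 1.0, 0.92 and 2.51 and TMA10, a ribosome-associated stress protein, by 0.86, 1.01 and 2.2, with the largest rise in culture 3 for both. SPO11 went the other way. Without the pairing the falls in small and large subunit assembly numbered 32 and 41, those in RNA polymerases I and III 12 and those in purine genes 4. The rises without it numbered 18 for the Slt2 and Rlm1 targets, 7 for the vacuole, 7 for the osmotic list, 2 for the tricarboxylic acid cycle and 1 each for trehalose and glycogen and for the respiratory chain.

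**Figure D4:**
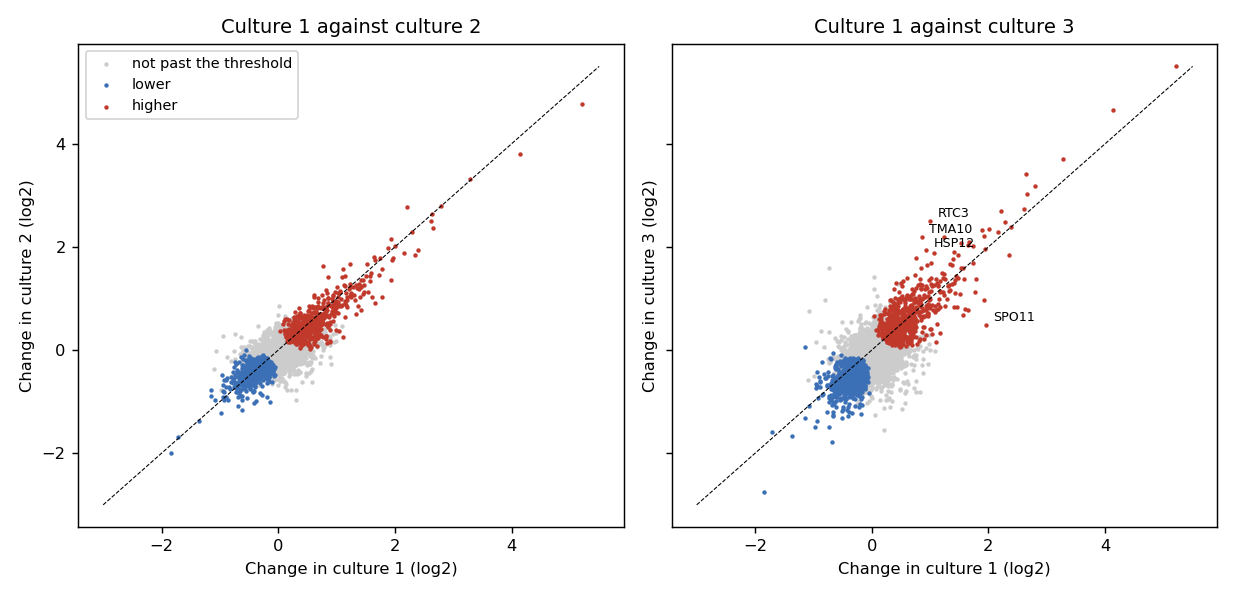
Change in Congo Red (log2) of each gene in culture 1 against culture 2 (left) and culture 3 (right), with called rises in red, called falls in blue and a dashed line where both are equal. Called genes follow the line in both panels, which the paired call favours. RTC3, TMA10 and HSP12 lie above the line and SPO11 below it for culture 3.

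The gcn5 mutant was used to ask where the wild type change differed from that of another strain. In the mutant 212 genes were called, 3.97% of those tested, and the change differed between the strains for 30 genes, 0.561%, by the test of the interaction. Of these, 26 changed more upward in wild type and 4 more downward. Among the 90 genes chosen for a rise of at least 2-fold in wild type, the rise was smaller in the mutant for 86, which the choice favours, and the difference was called for 22. The median changes of the 90 were 1.3 and 0.66.

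GSC2 had the smallest p of the interaction, with a change of 2.62 in wild type and 0.58 in the mutant (adjusted p = 0.00149). Its level varied more between mutant arrays (SD 0.74 untreated and 0.99 in Congo Red) than between wild type arrays (0.18 and 0.17). YPL088W followed with 2.92 and 1.36 (adjusted p = 0.00274) and BAG7 with 2.56 and 0.71 (adjusted p = 0.00274). The sphingoid base phosphatase gene YSR3 changed by 1.24 and -0.12 (adjusted p = 0.00967), and SPI1, a wall protein gene, by 1.05 and -0.11 (adjusted p = 0.00967). HAL1, AFB1 and RTA1 completed the 8 smallest values. PIR3 changed by 5.16 and 4.02, a difference that was not called (adjusted p = 0.173). The difference was not called for other genes, which does not show an equal change: SRL3 changed by 2.9 and 2.75 (adjusted p = 0.758), AFR1 by 2.11 and 1.95 (adjusted p = 0.663) and DFG5, a GPI-anchored protein of wall assembly, by 1.14 and 0.86 (adjusted p = 0.372). Of the 90 genes 4 had the larger rise in the mutant, PRM5 (2.12 and 2.88), CWP1 (1.49 and 3.0), YNL058C (1.25 and 1.31) and YCR099C (1.07 and 1.12). The difference was not called for any of them, with adjusted p from 0.0951 for CWP1 to 0.954 for YNL058C, and CWP1 varied widely in the untreated mutant (SD 1.42, n = 3). The count of 30 fell to 11, 3 and 12 without cultures 1, 2 and 3, and to 3 in the unpaired fit.

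**Figure D5:**
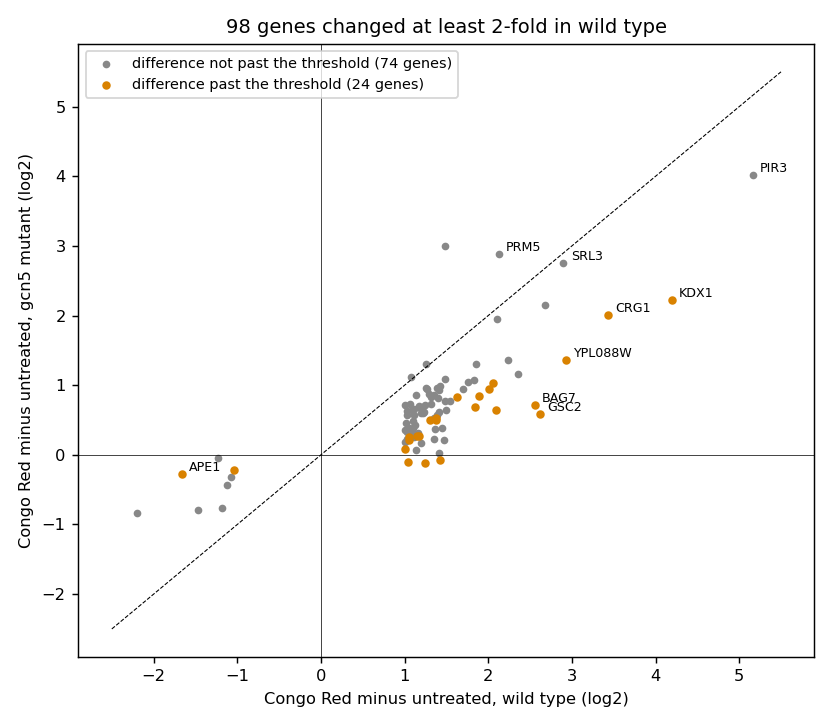
Change in Congo Red (log2) in wild type against that in the gcn5 mutant for the 98 genes called at 2-fold or more in wild type, with orange points where the interaction was called and a dashed line of equal change. Most rises lie under the line, GSC2 and BAG7 far below it, and SRL3 close to it.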

How the data were processed

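Total RNA of 12 yeast samples was hybridised to Affymetrix arrays, in 4 groups of 3 that the labels describe as biological samples. The authors deposited log2 levels for each probe set, which the submitters' processing notes credit to GCRMA without a version. GCRMA equalises the distributions of arrays, so a shift of all transcripts together would not be seen. Of 5716 probe sets, 5498 had 1 gene symbol and 218 had none, and 12 symbols were updated. The brightest set was kept for 47 genes with several. A gene was tested when 3 or more of the 12 arrays read above log2 4.

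One limma model (3.58.1, R 4.3.3) covered all 12 arrays with the divided culture as a block and a Congo Red effect per strain. It had 4 residual degrees of freedom and 4.6 from the prior, and p-values were adjusted by Benjamini and Hochberg over 5345 genes at 0.05. The code was tested on simulated data. The pairing rests on equal numbers in the array titles and on the divided culture in the labels' protocols. Deviations from the group means correlated at 0.531, 0.745 and 0.67 for equal numbers and at -0.005 or below for others. Deviations within a group cancel for each gene, so positive values for equal numbers push the others down. The negative values are therefore not separate evidence of the pairing. Precision is limited by the number of arrays.

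The comparison and the 73 gene lists were chosen with earlier results of these data known. Named genes are the 15 largest rises and falls without overlap, the 5 smallest p of each list (all members in lists of up to 12), markers, genes crossing log2 4, and for the strain difference the 8 smallest p and the 5 values nearest 0. CYC7, TIR1, TIR3, SED1, GPD1, CLN2, CLN3, PCL1 and the unlisted genes of 2-fold change were named after their values were seen. Alternatives changed the block, filter, scaling, floor, probe set rule and prior, or left out a replicate. Promoter and protein sequences were not analysed here.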

Additional observations from a re-analysis of the deposited data

Results flagged for a closer look

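For 27 of the genes named, the test of the difference between the strains was past the threshold, and each value here is the wild type change minus the mutant change on the log2 scale. The rise was larger in wild type for the signalling genes KDX1 (1.98), BAG7 (1.85), YPK2 (1.07) and SLT2 (1.04), and for the phosphodiesterase gene PDE1 (0.93). Among genes of wall enzymes and wall proteins the values were 2.04 for GSC2, 1.15 for SPI1, 1.02 for KTR2, 1.01 for NCA3, 0.88 for YPS1, 0.87 for EXG2 and 0.80 for YPS6. Other genes with a larger rise in wild type were YPL088W (1.56), AFB1 (1.5), HAL1 (1.46), CRG1 (1.43), YSR3 (1.36), RTA1 (1.15), NQM1 (1.0), YMR315W-A (0.89), YKE4 (0.84), YMR315W (0.84), ATP22 (0.81) and YIL108W (0.80). The fall was larger in wild type for APE1 (-1.38), FAF1 (-0.82) and SDA1 (-0.66).

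Of 212 bright enough probe sets without a gene symbol, which no comparison above used, 58 were past the threshold for Congo Red in wild type. These made 27.4%, near the 23.8% of all tested genes. Of these, 45 were higher and 13 lower.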

How the results depend on the processing

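None of the 337 named genes past the threshold changed direction under any alternative run. Several runs could not change a direction, since they leave the estimated wild type change as it was. These include the unpaired fit, the fit on wild type arrays alone, the trended, robust prior and the fit without mutant replicate 3. Rescaling the arrays, setting low values to the floor, averaging probe sets or leaving out a wild type culture could change it. Of the other named genes 48, none past the threshold, changed sign under 1 or more alternatives. With quantile normalization repeated these were 8 genes, with log2 changes of FMP45 -0.068, IZH3 0.004, MKK2 -0.034, PMT2 -0.011, SAG1 -0.008, SMK1 -0.064, ZAP1 -0.017, ZRT3 0.018. With a replicate left out they were 47, with log2 changes in the ranges BCH1 -0.063 to 0.067, BCK1 -0.12 to 0.035, CHS2 -0.14 to 0.016, FMP45 -0.058 to 0.12, FUR4 -0.32 to 0.010, GAS4 -0.18 to 0.058, GCN5 -0.074 to 0.057, GND1 -0.043 to 0.077, HIS3 -0.042 to 0.057, IZH2 -0.037 to 0.035, IZH3 -0.16 to 0.15, LEU2 -0.010 to 0.43, MF(ALPHA)2 -0.20 to 0.020, MFA1 -0.009 to 0.10, MKK2 -0.027 to 0.040, OST1 -0.10 to 0.011; OST2 -0.081 to 0.12, OST3 -0.069 to 0.045, OST5 -0.13 to 0.029, OST6 -0.16 to 0.036, PAU17 -0.19 to 0.22, PAU7 -0.025 to 0.24, PAU9 -0.12 to 0.34, PFA4 -0.12 to 0.20, PKC1 -0.18 to 0.008, PMT1 -0.095 to 0.044, PMT2 -0.10 to 0.093, PMT3 -0.14 to 0.12, PMT4 -0.049 to 0.14, PPR1 -0.27 to 0.005, PTC1 -0.13 to 0.044, PTC4 -0.076 to 0.016; and SAG1 -0.069 to 0.11, SEC23 -0.018 to 0.12, SEC31 -0.003 to 0.14, SFB2 -0.001 to 0.31, SFB3 -0.035 to 0.061, SLG1 -0.048 to 0.039, SOL4 -0.030 to 0.18, STT3 -0.092 to 0.052, SWI6 -0.015 to 0.071, SWP1 -0.12 to 0.008, TUS1 -0.041 to 0.13, URA1 -0.041 to 0.095, URA2 -0.13 to 0.078, ZAP1 -0.18 to 0.21, ZRT3 -0.030 to 0.023. Without the replicate block 494 genes were past the threshold, 285 higher and 209 lower, with 212 among listed genes and 3 for the strain difference. Fits were also made without wild type replicate 1, 2 or 3 and without mutant replicate 3, while mutant replicates 1 and 2 were never left out. In these fits the counts ranged from 744 to 1465, 428 to 748, 316 to 717, 303 to 548 and 3 to 33. The upper ends came from the fit without mutant replicate 3. The strain difference rose to 54 genes with the stricter filter on dim genes and to 116 with a trended, robust prior, and its cause was not tested. Of the named genes, 153 lost their call without the replicate block, 81, 86 and 71 without replicate 1, 2 and 3, and at most 31 under any other alternative. An unadjusted p under 0.05 was reached by 1938 genes. With 3 cultures and log2 values compressed near the floor, small changes of dim genes are the least certain. Motifs in promoters were not run, since no sequences were analysed here.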

Other observations

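Of the 98 genes changed at least 2-fold, 50 were in none of the lists, and those named here were picked after their values were seen. FBP26 and PFK26, enzymes that break down and make the glycolytic regulator fructose-2,6-bisphosphate, rose together, by 1.48 ± 0.12 and 1.12 ± 0.07. RCR1, known for resistance to Congo Red when in excess, read 8.14, 8.18 and 7.92 on the untreated arrays and 9.17, 9.28 and 9.06 in Congo Red and rose by 1.09 ± 0.08 (adjusted p = 4.4e-05). All treated arrays of RCR1 were above the untreated ones. RIM21, a sensor of alkaline pH that acts through RIM101, rose by 1.2 ± 0.11, and ASK10, a regulator of the glycerol channel, by 1.17 ± 0.11. TRS65, a trafficking gene known from the synthesis of beta-1,6-glucan, rose by 1.21 ± 0.08. The riboflavin transporter gene MCH5 rose by 1.49 ± 0.14 and the manganese transporter gene SMF1 by 1.01 ± 0.09. All these genes were also called when any one culture was left out.

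Genes that rose at least 2-fold often lay next to each other on a chromosome, as the order of genes in the RefSeq table of assembly R64 gives it. Of the 90, 17 (18.9%) had another of the 90 as a direct neighbour, while 152 of all 5345 tested genes (2.84%) had one of the 90 beside them. The 9 neighbouring pairs included the yapsin genes YPS1 and YPS3 (1.38 and 2.68), RLM1 and YPL088W (1.22 and 2.92), PIR5 and FMP33 (1.09 and 1.69), PRB1 and SOM1 (1.2 and 1.06), and PFK26 and YIL108W (1.12 and 1.3). YMR315W, YMR315W-A and DIA1 lay in a row, with changes of 1.05, 1.17 and 1.83. YMR315W-A was also the only gene under log2 4 on all untreated arrays and over it on all treated ones, a rise of at least 1.33-fold with values under 4 set to 4. Its mutant means were 3.37 untreated and 3.65 in Congo Red. The gene was therefore tested only through its treated wild type arrays, and such a filter favours a rise. For PRM10 and YJL107C (2.24 and 1.39) the annotated genes overlap, and whether their probe sets share signal was not examined. No test of this pattern was made.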
